A study of Caenorhabditis elegans with 2 samples.

Results

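Regions listed for FKH-3 at genes annotated as ncRNA, outside the tRNA, snoRNA and snRNA classes, were taken from a chromatin immunoprecipitation and sequencing (ChIP-seq) experiment in *Caenorhabditis elegans*. They were chosen by the position of their summit, the peak point that the list gives for each region. The summit had to lie within 100 bp of an Ensembl gene of biotype ncRNA on WBcel235, the same assembly as ce11, and not within 100 bp of any tRNA, snoRNA or snRNA gene. The rule kept 1327 of the 30000 regions of the pooled list (4.42%), which holds background together with peaks. Since it uses measured summits, the positions themselves are a description, as are all values below, and no test was run.

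The worms were whole young adults of mixed sex, collected 63 h after synchronisation as starved L1 larvae. All were of strain OP594, genotype unc-119(tm4063) III; wgIs594. The integrated transgene wgIs594 expresses FKH-3 with GFP and FLAG tags at its C-terminus. The labels' description names anti-GFP as the antibody of the precipitation, while their antibody field names FKH-3. Both biological replicates belong to this 1 group, so no condition is compared, and the matched control was not analysed here. For each replicate and for both pooled there was a list of 30000 regions, ranked here by the authors' score with rank 1 the highest. The 441 regions of the pooled list that passed the irreproducible discovery rate (IDR) threshold were its ranks 1 to 441. No read counts were given, so depth is unknown.

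FKH-3 is a member of the forkhead family of transcription factors, which bind DNA through a winged helix. The biotype ncRNA is a broad class in the worm annotation. It holds a few RNAs of known function next to many short loci that carry only a clone-based sequence name. Among the known RNAs, RNase P trims the 5′ end of tRNA precursors, RNase MRP acts on ribosomal RNA precursors, Y RNA binds the Ro protein, and the signal recognition particle (SRP) RNA forms the core of the particle that directs secreted proteins to the endoplasmic reticulum. In many animals these RNAs are transcribed by RNA polymerase III, as tRNAs are.

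The sequences below are from RefSeq WBcel235, each 5′ to 3′ on the strand of its ncRNA gene. The first set shows 4 windows of 100 bases each side of the summit in the IDR list, in which capitals mark annotated ncRNA genes. They were taken because they show a summit between a pair of genes, a GTTCGA word in a short gene and in a longer one, and a summit at the 3′ end of an SRP RNA gene. The windows lie at chrIII:7494966-7495166 (C07H6.15 and C07H6.17, pooled rank 16), chrIV:11026097-11026297 (F36H1.17, rank 21), chrII:14496952-14497152 (K10H10.14 and K10H10.11, rank 31) and chrIII:5211377-5211577 (srpr-2.1, rank 78).
C07H6.15: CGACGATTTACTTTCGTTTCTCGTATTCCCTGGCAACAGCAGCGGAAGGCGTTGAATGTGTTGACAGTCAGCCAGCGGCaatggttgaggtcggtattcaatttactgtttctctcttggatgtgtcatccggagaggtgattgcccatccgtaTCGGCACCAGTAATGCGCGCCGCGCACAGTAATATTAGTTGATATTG
F36H1.17: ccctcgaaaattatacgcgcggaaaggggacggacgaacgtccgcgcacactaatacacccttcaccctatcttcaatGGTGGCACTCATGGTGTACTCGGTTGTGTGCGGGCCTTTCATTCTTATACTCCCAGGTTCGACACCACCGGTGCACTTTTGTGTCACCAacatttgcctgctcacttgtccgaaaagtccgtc
K10H10.14: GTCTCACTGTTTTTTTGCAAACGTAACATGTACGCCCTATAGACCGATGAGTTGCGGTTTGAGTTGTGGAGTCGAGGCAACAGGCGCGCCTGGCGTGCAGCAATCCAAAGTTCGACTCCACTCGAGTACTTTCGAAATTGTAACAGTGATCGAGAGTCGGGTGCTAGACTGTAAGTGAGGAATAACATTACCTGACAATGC
srpr-2.1: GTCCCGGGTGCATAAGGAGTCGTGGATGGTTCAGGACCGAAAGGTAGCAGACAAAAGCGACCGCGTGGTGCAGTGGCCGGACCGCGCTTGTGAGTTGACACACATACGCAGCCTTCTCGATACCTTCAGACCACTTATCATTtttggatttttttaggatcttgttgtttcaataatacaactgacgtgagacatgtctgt

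The second set gives the 90 bases before the annotated 5′ end of ncRNA genes that hold a 2-part element, GGCNNAAC followed after 8 bases by TGTCNG. Capitals mark the 11 fixed letters of the element. This element was read from the sequences upstream of *rpr-1*, *mrpr-1* and *yrn-1* after their ranks had been seen. The stretches lie at chrII:7200143-7200232 (*mrpr-1*, RNase MRP RNA), chrIV:7499418-7499507 (*yrn-1*, Y RNA), chrV:11176853-11176942 (T19C4.11) and chrX:2990229-2990318 (Y41G9A.16).
mrpr-1: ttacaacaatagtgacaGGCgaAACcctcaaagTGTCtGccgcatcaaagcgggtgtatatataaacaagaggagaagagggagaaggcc
yrn-1: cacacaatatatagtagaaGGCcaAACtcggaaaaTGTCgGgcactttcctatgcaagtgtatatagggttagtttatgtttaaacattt
T19C4.11: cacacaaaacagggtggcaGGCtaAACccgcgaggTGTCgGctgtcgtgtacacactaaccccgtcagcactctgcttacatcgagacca
Y41G9A.16: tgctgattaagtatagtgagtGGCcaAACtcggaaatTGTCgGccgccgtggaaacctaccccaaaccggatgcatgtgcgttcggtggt

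The regions at ncRNA genes lay higher in the pooled list than its average region. Their median rank was 11813 (quartiles 5145.5 and 19751), where the whole list has a median of 15000.5 by construction. They made up 7.8% of the first 1000 ranks and 3.2% of the last 1000. Of the first 10 bins of 1000 ranks, 9 held more than the 4.42% of the whole list, and of the last 10 bins 0 did. The decline was uneven from bin to bin, so the shift was spread over the list and was not confined to its top.

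**Figure D1:**
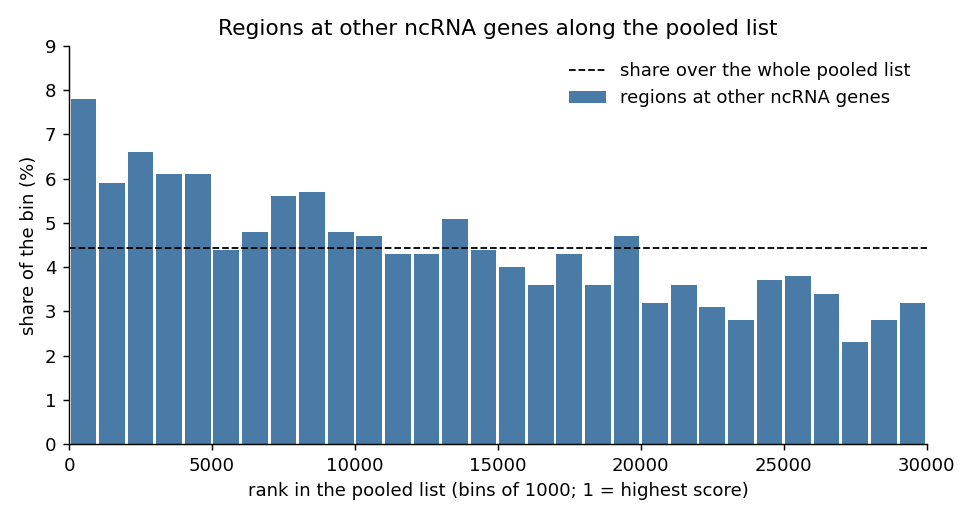
Share of each bin of 1000 ranks of the pooled list (y axis, percent) taken by regions at other ncRNA genes, against rank (x axis, 1 = highest score). The dashed line is their share of the whole list, 4.42%; the bar of the first bin reaches 7.8% and the bars of the last 10 bins stay below the line.

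In the IDR list 29 of the 1327 were found, 2.19% (exact 95% confidence interval 1.47 to 3.12%, which covers counting error of regions only). The share over all 30000 pooled regions was 1.47%, at the lower end of that interval. Outside coding genes, where 744 members lie, 2.15% of members were in the IDR list, below the 2.41% of all pooled regions there. In introns the shares were 2.51% and 1.31%, and in coding exons 2.02% and 0.882%. Regions at the excluded gene types are part of these backgrounds. Without them 276 of 29386 pooled regions were in the IDR list (0.939%), and 1.47% of those outside coding genes, so the direction outside coding genes turned with the background used. Regions at tRNA, snoRNA and snRNA genes, for comparison, numbered 614, of which 165 (26.9%) were in the IDR list, with a median rank of 1829.5. The exclusion of those genes therefore shaped the set: 1642 regions lay at ncRNA genes before it, 113 of them in the IDR list, and the 315 left out held 84 of these and had a median rank of 1509.

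Values near the limits of the rule were as follows. The 120 members in the last 25 bp inside the limit of 100 bp had a median rank of 10549, with 3 in the IDR list. The 124 regions in the first 25 bp beyond it had a median rank of 12491, with 1 in the IDR list. On the side of the exclusion, 6 members lay up to 25 bp outside the limit to a tRNA, snoRNA or snRNA gene, with a median rank of 3450. The 19 regions left out in the last 25 bp inside that limit had a median rank of 1442. B0280.22 is the IDR member nearest to such a gene, 123 bp from the spliced-leader RNA gene *sls-2.16*.

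Named genes stood high among the members. A name of the form letters and number, such as *rpr-1*, was carried by a gene at 13 of the 1327 regions, and 6 of the 13 were in the IDR list (46.2%, exact 95% confidence interval 19.2 to 74.9%), with a median rank of 828. The other 1314 regions, at genes with only a sequence name, had 23 in the IDR list (1.75%, interval 1.11 to 2.61%) and a median rank of 12054. The 13 regions lie at 11 genes, and 3 of the 6 are at SRP RNA genes that share sequence. The interval for the 13 treats them as more independent than they are. Some of these ranks were known when the genes were listed, so the figures describe these 13 regions and no more. The 10 listed structural and other known RNAs also have longer genes, with a median of 299 bp against 140 bp for all ncRNA genes. Median GC content in the windows of 100 bases each side was 51.2% at named and 45.3% at unnamed genes.

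The region at *rpr-1*, the RNA of RNase P, ranked highest of all 1327. Its region had rank 8 in the pooled list, rank 8 in replicate 1 and rank 6 in replicate 2. *rpr-1* lies at chrI:13463955-13464207 on the plus strand, in an intron of *ints-8*, a subunit gene of the Integrator complex, on the opposite strand. The summit was inside the gene, 26 bp from its 5′ end, and 93162 bp from the nearest gene of the excluded types. Of the 32-base words of the gene, 0% recurred elsewhere in the reference. The rank was within the top 8 in each list.

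*mrpr-1*, the RNA of RNase MRP, lies at chrII:7200233-7200418 outside coding genes. Its region ranked 143 in the pooled list, 117 in replicate 1 and 257 in replicate 2, with the summit 87 bp into the gene. The summit also lay at -229 bp, that is upstream, from the start of *pcrg-1*, so it falls in the promoter window of a coding gene, here from 500 bp before to 100 bp after a transcript start. No word of the gene recurred (0%). *yrn-1*, the Y RNA, lies at chrIV:7499508-7499612 in an intron of F55G1.15. It ranked 10417 in the pooled list and 1851 in replicate 1, and was not listed in replicate 2. The RNAs of RNase P and MRP were thus in the IDR list and the Y RNA was not. All 3 genes carry the same upstream element by construction, since it was read from them.

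SRP RNA is encoded by 5 genes, named srpr, of which 4 had a region within 100 bp and 3 were in the IDR list. *srpr-2.1* (chrIII:5211220-5211518) ranked 78 in the pooled list, 216 in replicate 1 and 68 in replicate 2, with the summit 257 bp into a gene of 299 bp. *srpr-2.2* (chrIII:5031410-5031708, in an intron of the kinesin gene *klp-6*) ranked 163, 99 and 329, with the summit at 90 bp. *srpr-1.2* (chrIII:4369468-4369766, in an intron of the choline kinase gene *ckb-2*) ranked 200, 894 and 221, with the summit at 142 bp. These 3 copies were listed in the first 1000 ranks of every list.

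*srpr-3*, on chromosome V, ranked 3542 in the pooled list, 10071 in replicate 1 and 1835 in replicate 2. *srpr-1.1* had no summit within 100 bp. The highest summit within 1000 bp of it had rank 168 and lay 473 bp from its 5′ end, beyond the end of the gene of 298 bp. The copies share sequence: 86.9% of the 32-base words of *srpr-1.1*, 74.6% of *srpr-1.2*, 71.6% of *srpr-2.1* and 70.1% of *srpr-2.2* recurred in the reference, against 0% of *srpr-3*. The placement of reads that match several copies is not described in the sources, so which of the 4 similar copies gave the signal is uncertain. In the windows around the summits 40.6% of words recurred at *srpr-2.1*, 81.2% at *srpr-2.2* and 93.5% at *srpr-1.2*.

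The longer named RNAs ranked lower in the pooled list than the 5 structural RNAs in the IDR list, which membership of that list largely fixes. Structural RNAs with a region outside it, *srpr-3* (3542) and *yrn-1* (10417), ranked below the best regions of *linc-171* (425), *tts-1* (828) and *rncs-1* (2318). Both ranked above *tts-2* (11140). *tts-1*, a long noncoding RNA known for its abundance in long-lived *daf-2* mutants, had 2 regions on X. The higher ranked 828 in the pooled list, 42 in replicate 1 and 879 in replicate 2, with the summit 86 bp beyond the 3′ end. The other ranked 1686, 2960 and 1944, with the summit 237 bp into the gene. The first was therefore in the top 441 of replicate 1 and below it in the other lists.

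*rncs-1*, a long hairpin RNA induced by starvation, ranked 2318 in the pooled list, 803 in replicate 1 and 3933 in replicate 2, with the summit at 38 bp. *tts-2* ranked 11140, 5144 and 21018. *linc-171*, a long intergenic RNA gene of 1137 bp, had a region of rank 425, 723 and 460 with the summit 1012 bp into the gene, the last of the 29 in the IDR list. A second region there ranked 18770 in the pooled list and fell in the same replicate regions as the first. Neither *lfor-1* nor *lfor-2* had a summit within 100 bp, and 83.2% and 92.3% of their words recurred. Of 14 named ncRNA genes 11 had a region and 6 had one in the IDR list. For all 7764 ncRNA genes 1895 had a region (24.4%) and 127 one in the IDR list (1.64%), regions near excluded types included.

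The spliced-leader RNA genes *sls-1* and *sls-2*, which encode the leader joined to worm mRNAs by trans-splicing, are annotated as snRNA and are no members. Of 30 such genes 8 had a region within 100 bp and 3 had one in the IDR list. For all 7764 ncRNA genes the shares by the same count were 24.4% and 1.64%, and those over all snRNA genes are not given here.

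**Figure D2:**
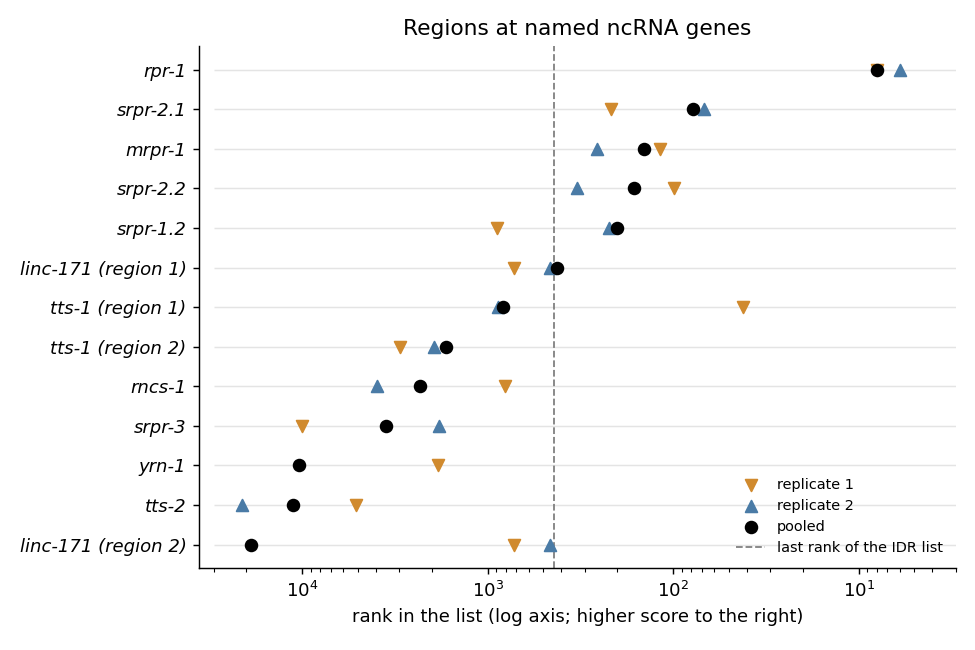
Rank (x axis, log scale, higher score to the right) of each region at a named ncRNA gene in the pooled list (circles), replicate 1 (down triangles) and replicate 2 (up triangles). The dashed line is rank 441, the last of the IDR list; *rpr-1* is far to the right at 8, 8 and 6, *yrn-1* has no point for replicate 2, and *tts-1* spans 42 to 879.

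Of the 29 regions in the IDR list 23 were at genes with only a sequence name, and 6 of these ranked above every srpr copy. The summit at C07H6.15 and C07H6.17 on chromosome III ranked 16 in the pooled list, 20 in replicate 1 and 12 in replicate 2. It lay in the stretch of lower case letters between these genes, 22 bp from C07H6.15. F36H1.17 on chromosome IV, whose summit is also within 100 bp of the microRNA gene *cel-mir-51*, ranked 21, 18 and 25, with the summit 22 bp into the gene of 89 bp. Y37A1B.335, on the strand opposite the microRNA gene *cel-mir-52*, ranked 22, 22 and 23, with the summit 28 bp from its 5′ end. These 3 ranks differed little between lists.

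K10H10.14 and K10H10.11 on chromosome II ranked 31, 68 and 31 in the pooled list, replicate 1 and replicate 2. Y65B4BR.10 ranked 37, 60 and 39, with its summit at -276 bp from a start of *wwp-1*, a ubiquitin ligase gene. B0280.22, opposite a coding exon of the glutamate receptor gene *glr-2*, ranked 40, 76 and 28. Each of these 3 ranked lower in replicate 1 than in the other lists. C30E1.9, the longest ncRNA gene of the annotation at 14770 bp, had 2 summits near its 5′ end on X. The first, at 75 bp, ranked 82, 73 and 110, and the other, at 1045 bp, ranked 100, 29 and 272.

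The other unnamed IDR members ranked from 107 to 389 in the pooled list. F54D5.22, the name of 2 overlapping genes on opposite strands in an intron of the dehydrogenase gene *dhgd-1*, ranked 108 in the pooled list, 179 in replicate 1 and 127 in replicate 2. Y38F2AL.11, in an intron of *vha-11*, a subunit gene of the vacuolar proton pump, ranked 124, 949 and 89. Y94H6A.16, outside coding genes, ranked 165, 90 and 371. Of these 3, F54D5.22 was in the top 441 of both replicates, as was Y94H6A.16, and Y38F2AL.11 was below it in replicate 1.

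C17G10.14, opposite a coding exon of C17G10.6, ranked 188, 839 and 209. T28D6.10, with 2 more ncRNA genes in an intron of the alpha-tubulin gene *tba-7*, ranked 275, 514 and 288. T26A5.10, with its summit at -643 bp from a start of the dynein light chain gene *dlc-1*, ranked 310, 519 and 424. All 3 were in the top 441 of replicate 2 and below it in replicate 1. T04C10.8, with its summit at -457 bp from a start of the epsin gene *epn-1*, ranked 312, 502 and 315. F08G2.13, a gene of 75 bp, ranked 321, 235 and 421 and was in the top of both replicates. Y51A2D.38 ranked 337, 308 and 918, and C26E6.15 ranked 354, 322 and 616, both in the top of replicate 1 and below that of replicate 2.

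Among the 29 IDR members, the largest differences in rank between replicates were at T20B12.12 (4553 in replicate 1 and 295 in replicate 2), ZC123.7 (3072 and 541), R13H8.5 (2211 and 540) and C14F11.14 (1731 and 61). All 4 ranked lower in replicate 1. The summit at R13H8.5 lay in an intron of *daf-16* and that at F38A6.9 (rank 387, with 614 and 803 in the replicates) in an intron of *pha-4*. Both are forkhead genes, *daf-16* the FOXO factor of insulin signalling and *pha-4* the pharynx organ selector. The highest members just outside the IDR list were at T28F4.7 (rank 446, with 9771 and 233 in the replicates), ZK816.9 (467, with 3142 and 510) and C07A12.19 (482, with 2029 and 423).

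A region counted as listed in a replicate where the pooled summit lay inside one of its regions. Of the 1327, 849 (64.0%) were listed in replicate 1, against 59.7% of all pooled regions, and 1019 (76.8%) in replicate 2, against 73.8%. Both replicates listed 620 (46.7%, exact 95% confidence interval 44.0 to 49.4%), against 39.8% over all 30000. Neither listed 79 (5.95%, against 6.34%). The share in both lists was higher than the background by a few percentage points, and the remaining members were missing from 1 replicate or from both.

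The 441 highest regions of each replicate were used as its top. The top of both replicates held 16 of the 1327 (1.21%), against 0.657% of all pooled regions. The top of replicate 1 held 43 (3.24% against 1.59%) and the top of replicate 2 held 27 (2.03% against 1.60%). Of the 16 in both, 15 were in the IDR list, as were 188 of the 197 such regions of the whole pooled list. The share stood further above the background in replicate 1 than in replicate 2, a difference that was not tested.

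All 29 IDR members were listed in both replicates, 15 of them in both tops (51.7%), 17 in that of replicate 1 (58.6%) and 23 in that of replicate 2 (79.3%). Over all 441 regions of the IDR list the shares were 98.9%, 42.6%, 57.4% and 78.0%, and the differences were not tested. The worst ranks of the 29 were 4553 in replicate 1 and 918 in replicate 2. Over the 620 members listed in both replicates, Spearman's rho between the replicate ranks was 0.358, as a description over regions that share libraries. Over all 11952 such regions of the pooled list it was 0.3. The larger of a member's replicate ranks was a median 2.23 times the smaller, against 2.13 times for all. Among the 29 IDR members it was 2.19 times, so single ranks differed between replicates by about this factor in the IDR list too.

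**Figure D3:**
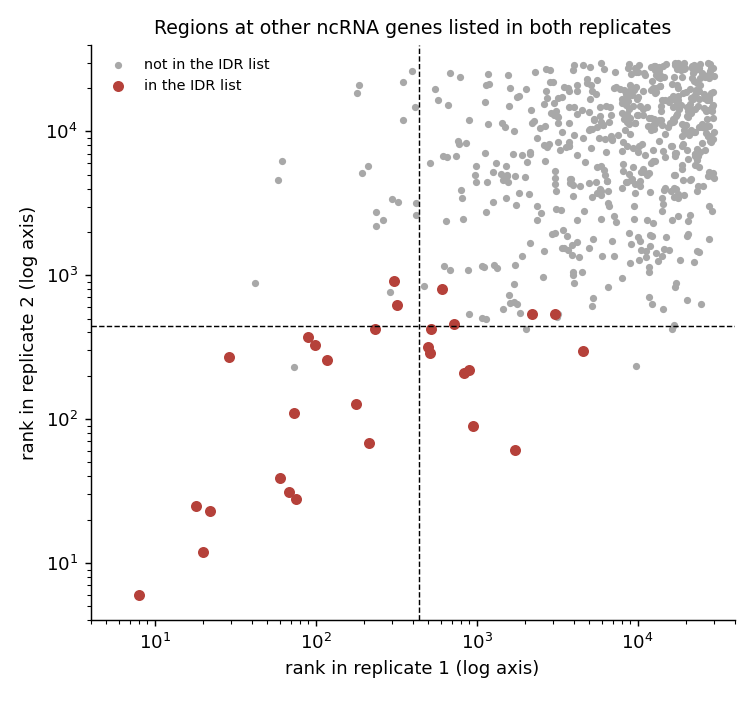
Rank in replicate 1 (x axis, log scale) against rank in replicate 2 (y axis, log scale) for the 620 regions at other ncRNA genes listed in both; red points are the 29 in the IDR list and dashed lines mark rank 441. The point at the lower left is *rpr-1* (8 and 6), and 15 red points lie in the corner below both lines.

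Most summits of the IDR members lay inside the annotated gene. Of the 29, 21 (72.4%) were inside, 4 (13.8%) upstream of the annotated 5′ end and 4 downstream of the 3′ end. Of the other 1298, 708 (54.5%) were inside, 308 (23.7%) upstream and 282 (21.7%) downstream. Without the 5 listed structural RNAs, 16 of the other 24 IDR members (66.7%) were inside. The nearest genes had a median length of 171 bp for the 29 and 147 bp for the 1298. With a fixed limit of 100 bp, a longer gene leaves more room inside. Neither the difference in shares nor the part of gene length in it was tested. Median positions were close, at 85 bp and 79 bp from the 5′ end. By place, 2.88% of the members inside a gene were in the IDR list, 1.28% of those upstream and 1.40% of those downstream. All 5 IDR members of the listed structural RNAs, *rpr-1*, *mrpr-1* and the 3 srpr copies, had the summit inside the gene, from 26 to 257 bp from the 5′ end.

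**Figure D4:**
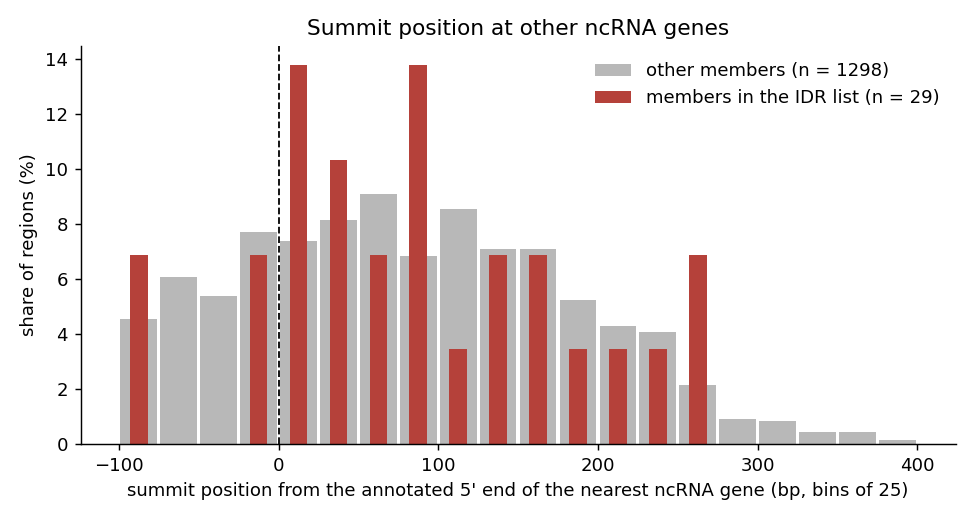
Summit position relative to the annotated 5′ end of the nearest ncRNA gene (x axis, bp, bins of 25) and share of regions (y axis, percent) for the 29 members in the IDR list (narrow red bars) and the 1298 others (wide grey bars). Positions of 400 bp or more, 2 of the first and 44 of the second, are not drawn; most bars of both sets lie to the right of 0.

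Ranks also varied with the length of the nearest gene. Members at genes of 200 bp or more (409) had a median rank of 10209 and 13 in the IDR list (3.18%). Those at genes of at least 100 but under 200 bp (714) had 12227 and 10 (1.40%). Those at genes under 100 bp (204) had 13230 and 6 (2.94%). The median rank was best at the longest genes and worst at the shortest, and the IDR share did not follow the same order.

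Compared with the pooled list, the members lay away from coding exons. Outside coding genes were 56.1% of members against 28.2% of all pooled regions, in introns 33.0% against 29.1%, and in coding exons 7.46% against 37.4%. These shares follow in part from where ncRNA genes are annotated. Where the summit lay in a coding gene, that gene was on the opposite strand for 394 members, on the same strand for 181 and on both for 8. A promoter window of a coding gene held 20.5% of members, against 15.3% of all. It held 7 of the 29 IDR members (24.1%), against 20.6% of the IDR list. These were *mrpr-1*, Y65B4BR.10, T04C10.8, F54D5.22 (-200 bp from *dnj-13*), F38A6.9 (-400 bp from *pha-4*), ZC123.7 (-258 bp from *zfh-2*) and C14F11.14 (-200 bp from T13C5.6). Median GC content was 45.3% against 41.3%. A microRNA gene was within 100 bp of 13 members (0.98%, against 0.153% of all pooled regions) and a piRNA gene within 100 bp of 2 (0.151%, against 0.417%).

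Over chromosomes, members and their IDR entries were spread differently. X held 495 members (37.3%), 32.5% of all ncRNA genes and 19.6% of all pooled regions, but 4 of its members were in the IDR list (0.808%, against 1.48% of all pooled regions on X). Chromosome III held 134 members (10.1%), 9 of them in the IDR list (6.72%, against 1.91% of all pooled regions there), among them the 3 srpr copies. Chromosome V held 268, with 2 in the IDR list (0.746%, against 1.01%). These backgrounds include regions at the excluded gene types, of which 26.9% were in the IDR list. Backgrounds without them are not given by chromosome, so the contrasts on X and V may depend on the background used. Chromosomes I, II and IV had 5, 5 and 4 IDR members. Median ranks ranged from 10906 on III to 12818 on V, with 11512 on X, so the chromosomes differed less in median rank than in IDR share.

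**Figure D5:**
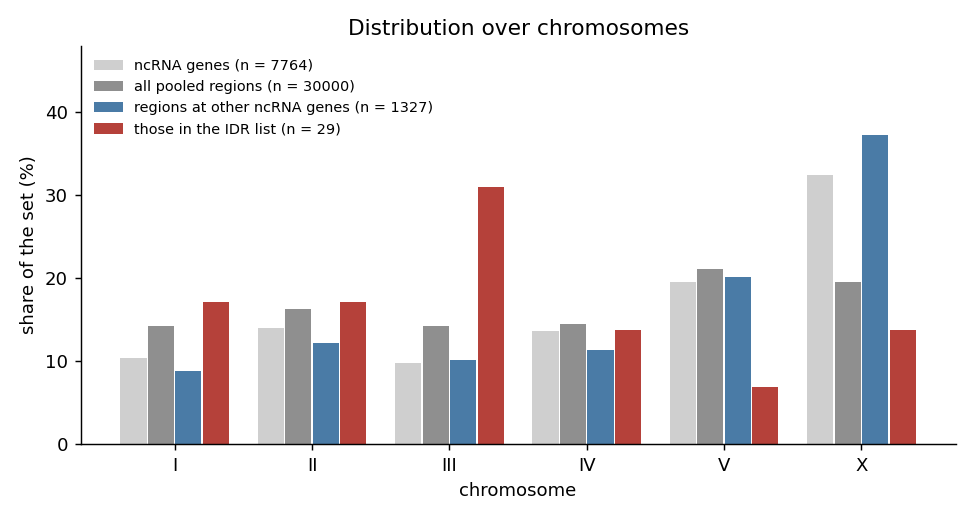
Share of each set on each chromosome (y axis, percent): ncRNA genes (light grey), all pooled regions (dark grey), regions at other ncRNA genes (blue) and those in the IDR list (red). X has the tallest blue bar, 37.3%, with a red bar of 13.8%, and III has the tallest red bar, 31%.

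Short words were searched on both strands within 100 bases of the summit. GTTCGA, the core of the B box inside tRNA genes, was in 7 of 29 IDR members (24.1%), 5.93% of other members and 8.71% of all pooled regions. It was in 27.7% of the whole IDR list, and in 36 of its 276 regions away from tRNA, snoRNA and snRNA genes (13.0%). In F36H1.17 and K10H10.14 it lies in the capitals of the windows printed above. The other 5 were at the summit of C30E1.9 of rank 100, F54D5.22, Y94H6A.16, R13H8.5 and *linc-171*. Of the 84 members with the word 8.33% were in the IDR list, with a median rank of 9803. Of all 2612 pooled regions with it 4.67% were in the IDR list, and 1.56% of the 2304 away from the excluded gene types. A match is a description of letters and not of a promoter.

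ATGCGC and CGCGCA, a pair of words listed from earlier results of these data, were in 5 (17.2%) and 7 (24.1%) of the 29 IDR members, in 7.40% and 9.86% of the other members and in 4.30% and 4.77% of all pooled regions. In the whole IDR list the shares were 9.30% and 11.3%, and in its 276 regions away from tRNA, snoRNA and snRNA genes 11.6% and 12.7%. Since the words came from these data, their shares here lend them no support. The window printed for C07H6.15 holds both, in the capitals near its 3′ end, which belong to C07H6.17. Y65B4BR.10, T26A5.10 and F38A6.9 hold both too. The forkhead motif was searched as ATAAACA and as ATAAATA, and with G in the first place as GTAAACA and as GTAAATA. It was in 2 of the 29 (6.90%), F54D5.22 and C17G10.14, in 12.6% of other members, in 13.7% of all pooled regions and in 12% of the IDR list. Median GC content was 48.3% in the IDR members, 44.8% in the IDR list and 41.3% in all pooled regions. With 29 regions these shares rest on 2 to 7 matches each, and the differences were not tested.

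The 2-part element was searched in the 100 bases upstream of each gene, on the gene's strand. With all 11 letters it occurred at 9 of 7764 ncRNA genes (0.116%), 12 of 346 snoRNA genes (3.47%), 12 of 129 snRNA genes (9.30%), 0 of 612 tRNA genes and 0 of 19973 protein-coding genes. At the ncRNA genes it began at -80 to -54 bases from the 5′ end, with a median of -71. At both snoRNA and snRNA genes the median was -63.5. It is thus a rare sequence, shared by some genes of the excluded types.

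Of the 9 ncRNA genes 5 had a region within 100 bp (55.6%, against 24.4% of all ncRNA genes) and 2 had one in the IDR list. *rpr-1*, *mrpr-1* and *yrn-1*, from which the element was read, are 3 of the 5 and lend it no support. The other 2 are T19C4.11 and T19C4.16, which overlap and share 1 region of pooled rank 4470, with 5507 and 4454 in the replicates, and 100% and 93.3% of their words recurred. *lfor-1*, *lfor-2*, Y41G9A.16 and C15H11.17 had none. With 1 letter changed there were 6 more genes, 5 of them with a region and 0 in the IDR list. Their ranks were 887 (ZK265.11), 1854 (F44E5.16), 6894 (F36H12.65), 8485 (K08B5.8) and 24244 (Y22F5A.8). Of these 5, only K08B5.8 was listed in both replicates.

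A run of 4 T, the usual end signal of RNA polymerase III, was looked for in the 30 bases after the annotated 3′ end on the gene's strand. It was present at 31.1% of all ncRNA genes, 26.9% of the 1585 with a member region and 17 of the 37 near an IDR member (45.9%). Of the 10 listed structural and named RNAs 7 had it, namely *mrpr-1*, *yrn-1*, *srpr-2.1*, *srpr-2.2*, *srpr-1.2*, *srpr-3* and *tts-1*. It was absent at *rpr-1*, *srpr-1.1* and *rncs-1*. Within the first 10 bases, a distance chosen after these values were seen, the shares were 11.0%, 8.58% and 18.9%. Of the 10 listed RNAs 3 had it there, *yrn-1*, *srpr-2.1* and *srpr-1.2*.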

How the data were processed

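FKH-3 ChIP-seq was described in 1 group of 2 biological replicates. Per the labels' description the precipitation used anti-GFP, while their antibody field names FKH-3. The deposited lists are narrowPeak files of peaks and background from the authors, for each replicate, for both pooled and for the pooled regions past the IDR threshold. The authors' region value is a score on an unstated scale and was used only as a rank within a list. The deposited −log10 q-value is the authors' own and served only for an alternative ranking. The sources used here do not name the aligner, the peak caller or a version. Lists on ce10 were not used.

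Summits on ce11 were placed on Ensembl 115 models of WBcel235 and its RefSeq sequence, with mitochondrial genes left out. A gene at several distances was assigned by nearest edge, ties to the shorter. Recurrence is the percent of 32-base words of a gene or window found again in the reference. Median pooled region width was 390 bp. The software was scipy 1.17.1, pandas 2.3.3 and numpy 2.4.6 under Python 3.11.15, with figures from matplotlib 3.10.9. Intervals are exact binomial (95%) and cover counting error only. Membership, positions and replicate matching were tested on simulated data.

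Members and lists were chosen with earlier results of these data known. Named were the IDR members, members at ncRNA genes with a letter-number name, and a list of structural and other known RNAs, of which terr-1 was not found by that name; the 10 of best rank are given in full. *daf-16* and other host genes and the members just outside the IDR list were named after their values were seen, and the backgrounds without the excluded gene types were added then too.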

Additional observations from a re-analysis of the deposited data

How the results depend on the processing

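No paired analysis was possible because all samples form 1 group. Alternatives were a window of 0, 50 or 200 bp, leaving out regions at microRNA or piRNA genes or in coding promoters, merging overlapping regions, a stricter IDR list, ranking by the q-value, matching replicates by summit and, chosen after seeing the data, 500 bp from excluded genes and leaving out recurrent windows. Of 51 values under alternatives 45 stayed within their interval or within 1.5 times. The median rank was 10875 with a window of 0 bp and 10911.5 with overlapping regions merged (all merged regions 14333). The 220 highest regions of the IDR list held 18 members (1.36%, against 0.733% of all), fewer by construction. Ranked by q-value, *rpr-1* shared the highest value with 399 regions in all and took their mean rank of 200. With a replicate summit within 100 bp, 34.2% of members were listed in both, against 28.8% of all. With replicate 2 or replicate 1 in place of the pooled list, the top held 28 to 37 members (2.26 to 3.01%), the median rank was 11944.5 to 12113, *rpr-1* ranked 6 to 8 and 14.3 to 18.9% of top summits were upstream. The 3 srpr calls rest on copies that share sequence. Without windows of over 50% recurrent words, 27 IDR members were left (2.05%). Unknown depth, 1 group, no control analysed here and few named genes limit these values.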
